A study of Mus musculus with 20 samples.

Results

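Hippocampi of melanoma-bearing mice split into a set with Lcn2 transcripts and a set almost without them. Among the 10 hippocampal libraries from tumour-bearing mice, those with a raw Lcn2 count of 50 or more were placed in the high class (4 libraries) and those under 50 in the low class (6 libraries), out of 20 libraries in the whole study. The classes were thus chosen by the measured Lcn2 count. They are not treatment groups, and Lcn2 was left out of every test.

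The study compared adult male wild-type mice, 10 to 12 weeks old, whose strain is not named, in 4 groups of 5, and the labels give single frozen hippocampi from 5 brains in each group. CONTROL mice had no tumour and received isotype-matched antibody intraperitoneally, and CONTROL + ICI mice had no tumour and received immune checkpoint inhibitors (ICI), which are antibodies that release brakes on T cells, here anti-CTLA-4 at 1 mg per dose 3 times weekly with anti-PD-1 at 200 µg per dose 2 times weekly. MELANOMA mice carried D4M-3A.UV2 tumours, a mouse melanoma line injected into the skin on both sides at 500000 cells per injection, and received isotype antibody. MELANOMA + ICI mice carried the same tumours and received both inhibitors. The antibodies began after 1 week of engraftment, the course with tumour and inhibitors ran for 3 weeks, and mice were killed 72 hours after the last injection. The tumour lies outside the brain, so the libraries hold host tissue, and no measure of tumour size was used here. The library names of CONTROL + ICI 5 and melanoma + ICI 1 carry the same number, 64, whose meaning the labels do not give, and their counts differed by more than sampling noise (chi-square per gene 57.8, where pairs within a group gave 10.5 to 120.2). The high class held the libraries melanoma 1 and 4 and melanoma + ICI 1 and 3. The low class held melanoma 2, 3 and 5 and melanoma + ICI 2, 4 and 5, so each treatment gave 2 high and 3 low libraries.

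Lcn2 encodes lipocalin-2, a secreted protein that binds the iron-carrying siderophores of bacteria and is a standard acute-phase product. Its transcription is driven by the inflammatory factors NF-kB, STAT3 and C/EBP after signals such as interleukin-1 and interleukin-6, and in the inflamed brain it is known from reactive astrocytes, endothelium and infiltrating neutrophils. Receptors described for it are Slc22a17 and the endocytic receptor Lrp2 (megalin).

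The raw Lcn2 count was 60 and 68 in melanoma 1 and 4 and 82 and 56 in melanoma + ICI 1 and 3. It was 5, 14 and 7 in melanoma 2, 3 and 5 and 3, 2 and 3 in melanoma + ICI 2, 4 and 5. The members nearest the threshold were melanoma + ICI 3 at 56 counts and melanoma 3 at 14 counts, with no library between them. Scaled to counts per 1000000 (CPM), the high libraries stood at 2.52, 2.88, 3.37 and 2.17 CPM, and the low libraries had a lowest value of 0.079, a median of 0.173 and a highest value of 0.607 CPM. The 10 tumour-free libraries had 0 to 8 counts, with a median of 2.5, and reached at most 0.365 CPM. The gene lies on chromosome 2 from 32384633 to 32388252 on the minus strand in the deposited files. These values chose the classes and carry no test.

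The upstream sequences of Lcn2 and of 3 further genes of the inflammatory response named below are shown. All 3 had a higher fitted level in the high class, and whether they share a regulator with Lcn2 was not tested. Each is the 250 bases before the RefSeq transcription start on GRCm38.p6, written 5′ to 3′ on the gene's strand. Capitals mark matches to the NF-kB pattern (GGG, any 5 bases, CC) or the C/EBP pattern TTNNGNAA on either strand.
Lcn2: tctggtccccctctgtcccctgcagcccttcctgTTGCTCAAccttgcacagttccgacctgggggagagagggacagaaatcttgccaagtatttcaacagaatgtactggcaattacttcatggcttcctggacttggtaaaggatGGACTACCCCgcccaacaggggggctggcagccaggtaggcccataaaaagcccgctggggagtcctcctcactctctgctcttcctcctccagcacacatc
Lrg1: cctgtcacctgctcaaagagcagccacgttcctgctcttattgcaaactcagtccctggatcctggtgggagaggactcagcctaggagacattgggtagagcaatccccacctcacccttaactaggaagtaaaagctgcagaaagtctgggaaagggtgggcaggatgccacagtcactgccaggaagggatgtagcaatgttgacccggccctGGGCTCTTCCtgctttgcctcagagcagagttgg
Nfkbia: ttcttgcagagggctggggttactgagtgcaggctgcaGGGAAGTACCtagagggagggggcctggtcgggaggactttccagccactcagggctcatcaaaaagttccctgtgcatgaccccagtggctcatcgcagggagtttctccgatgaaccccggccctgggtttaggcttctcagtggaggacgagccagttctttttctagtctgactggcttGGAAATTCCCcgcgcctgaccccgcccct
Ch25h: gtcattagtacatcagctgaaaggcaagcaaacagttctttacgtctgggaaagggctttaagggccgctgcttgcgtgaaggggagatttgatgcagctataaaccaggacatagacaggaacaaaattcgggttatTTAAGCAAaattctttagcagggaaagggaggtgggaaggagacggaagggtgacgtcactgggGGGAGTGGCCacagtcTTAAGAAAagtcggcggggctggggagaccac
The windows are chr2:32387740-32387989 for Lcn2, chr17:56121947-56122196 for Lrg1, chr12:55492648-55492897 for Nfkbia and chr19:34475149-34475398 for Ch25h, all on the minus strand. In the Lcn2 window the NF-kB match ends 93 bases before the start and the C/EBP match 209 bases before it. Lrg1 has an NF-kB match that ends 25 bases before the start. Nfkbia, the inhibitor of NF-kB that NF-kB itself induces, has 2 NF-kB matches, ending 203 and 20 bases before the start. Ch25h has an NF-kB match ending 39 bases and C/EBP matches ending 105 and 25 bases before the start. None of the 4 windows holds the STAT pattern TTCNNNGAA. Such short patterns are common: of 32817 mouse promoter windows of this length, 45.8% hold the NF-kB pattern, 36.8% the C/EBP pattern and 7.01% the STAT pattern. A match is a description of the letters and shows no binding.

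Library totals over all 20 libraries ran from 21990624 to 25735149 counts. The high class averaged 24576000 ± 772500 counts (SD, n = 4) and the low class 23284000 ± 929050 counts (SD, n = 6), with an exact permutation p of 0.0667 (two-sided, 210 choices, adjusted over 5 library measures 0.151). The 100 most abundant genes took 17.3% ± 0.344 of the counts in the high class and 16.7% ± 0.36 in the low class (exact permutation p = 0.0381, adjusted 0.151). Their part in the results below was not tested. In a principal component analysis of the 10 libraries, which put 26.9% of the variance on the first axis and 20.8% on the second, 2 high libraries lay farthest out on different axes: melanoma + ICI 1 at 51.8 on the first, and melanoma + ICI 3 at 50.6 on the second. The high class was thus not a compact group.

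With ICI treatment as a covariate, no gene separated the classes after adjustment. Of 17690 genes tested, 0 (0.00%) had an adjusted p under 0.05 by edgeR's quasi-likelihood test with Benjamini-Hochberg adjustment. At an unadjusted p under 0.05 there were 946 genes (5.35%), of which 413 were higher (2.33%) and 533 lower (3.01%) in the high class. In 53 genes (0.300%) every high library lay above every low library, and in 80 (0.452%) every high library lay below. limma voom also called 0 genes. DESeq2 called 8 (0.0452%): Npnt was higher, and Tnc, Eya2, Fbln2, Fmod, Slc22a6, Camk2d and Dsc2 were lower. Within melanoma alone edgeR called 0 genes (0.00%), and within melanoma + ICI alone it called 2 (0.0124%), Rassf3 and Myl4, an atrial myosin light chain, both higher.

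The 10 genes with the smallest p and a mean of at least 1 CPM are given as leading signals and not as changed genes, since each had an adjusted p of 0.865. Npnt, on chromosome 3 from 132881745 to 132950291, encodes nephronectin, a matrix ligand of integrins. Its levels were 41.1, 27.1, 35.6 and 39.8 CPM in the high libraries and 14.7 at the lowest, 17.8 at the median and 22.6 CPM at the highest in the low libraries. The classes did not overlap, and the fitted difference was 0.98 ± 0.15 on the log2 scale (± SE). The tumour-free libraries ranged from 15.5 to 60.2 CPM around a median of 29.5 and so overlapped both classes. Tnc, on chromosome 4 from 63959785 to 64047015, encodes tenascin C, a matrix glycoprotein made by astrocytes and fibroblasts. It read 4.54, 3.52, 5.26 and 3.14 CPM in the high class and 5.76, 9.72 and 10.8 CPM at the lowest, median and highest low library. Again no high library reached a low library, with a difference of -1.12 ± 0.20 log2. Tumour-free values of 3.78 to 13.2 CPM overlapped both classes here too. The leading genes were picked by their p in the same libraries, so a lack of overlap is not separate support. Over all genes tested, every high library lay above every low one in 0.300% and below in 0.452%.

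Eya2, a transcriptional co-activator, was at 2.40, 2.67, 1.93 and 1.94 CPM against 3.16, 4.39 and 5.01 CPM at the lowest, median and highest low library (-0.93 ± 0.18 log2). Fbln2, the matrix protein fibulin-2, was at 15.6, 9.88, 9.32 and 9.95 CPM against 14.5, 17.5 and 19.2 CPM. Melanoma 1 overlapped the low class for Fbln2, while it did not for Eya2. Slc22a6, an organic anion transporter of the leptomeninges, was at 4.04, 5.13, 6.53 and 8.17 CPM against 8.28, 11.2 and 14.3 CPM. Fmod, the collagen-binding proteoglycan fibromodulin, was at 9.29, 13.4, 14.5 and 19.4 CPM against 15.9, 26.2 and 38.9 CPM. Both of these are on the list of meningeal and fibroblast markers described below, and Slc22a6 but not Fmod kept the classes apart. In bulk tissue fewer cells of a type and less RNA per cell cannot be told apart. Papss2, an enzyme that makes the sulfate donor of the cell, differed by -0.50 ± 0.11 log2, and Camk2d, a calcium-dependent kinase, by -0.68 ± 0.15. Tspan9, a membrane tetraspanin, differed by -0.45 ± 0.10 and Smim3, a small membrane protein, by 0.49 ± 0.11. Dsc2, a desmosomal cadherin with a mean below 1 CPM, named after its values were seen, was at 0.547, 0.297, 0.411 and 0.464 CPM against 0.939, 1.20 and 1.86 CPM.

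**Figure D1:**
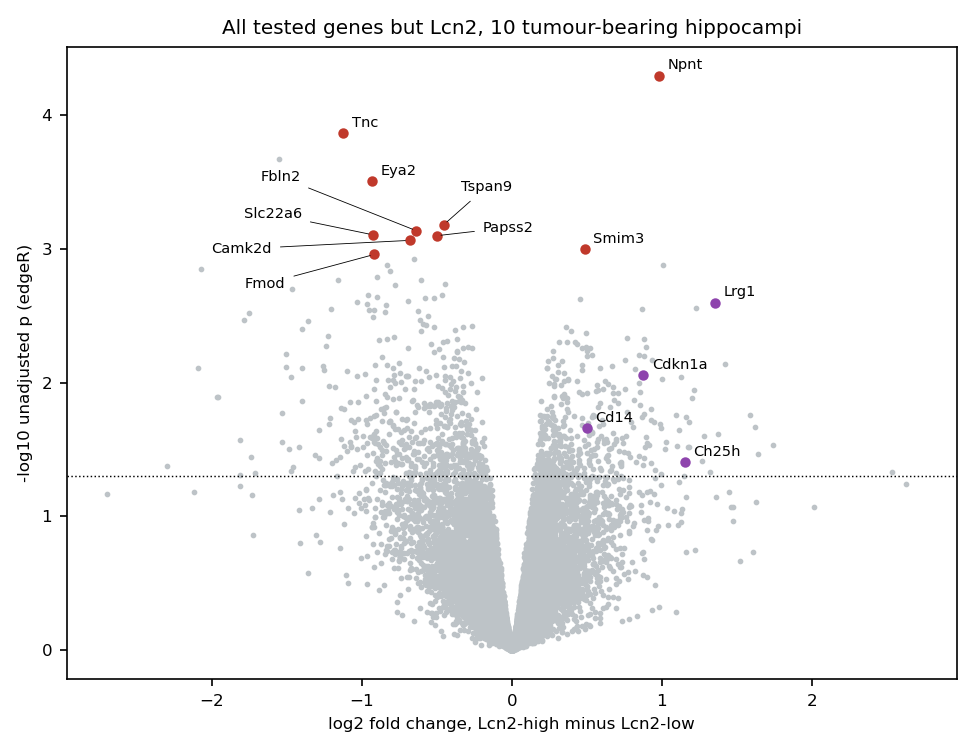
Each point is a gene tested between the 4 high and 6 low tumour-bearing hippocampi (Lcn2 left out), with the log2 fold change, high minus low, on the horizontal axis and the unadjusted p of edgeR on a -log10 scale on the vertical axis. The dotted line marks the unadjusted threshold. Red points are the 10 leading genes, with Npnt at 0.98 and Tnc at -1.12, and purple points are 4 further genes of the text.

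The acute-phase list held the genes that respond to NF-kB, STAT3 and C/EBP with Lcn2. Of its 36 genes, 24 passed the filter on low counts. None of the 24 was called, 21 had a higher fitted level in the high class, and the median difference was 0.23 log2, beside 9239 of 17690 genes higher and a median of 0.01 over all genes tested. At an unadjusted p under 0.05, 5 were higher (Lrg1, Cd14, Cebpd, Nfkbia and Ch25h) and 0 lower, where 2.33% of all genes were higher. Without melanoma + ICI 1 the number was 1, without melanoma 3 or melanoma + ICI 2 or 4 it was 3, and with limma voom 14 of the 24 were higher with a median of 0.07. Without melanoma 4 the median was 0.15. The list was chosen with earlier results of these data known.

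Lrg1, on chromosome 17 from 56119680 to 56121946, encodes a secreted leucine-rich glycoprotein of the acute phase that endothelium also makes. In melanoma 1 and 4 it stood at 2.61 and 3.31 CPM and in melanoma + ICI 1 and 3 at 1.23 and 3.56 CPM. The low libraries ran from 0.311 over a median of 1.19 to 1.73 CPM, and the tumour-free libraries from 0.766 over 1.02 to 1.56 CPM. Thus 3 high libraries lay above every other library, while melanoma + ICI 1 lay inside the low range. The fitted difference was 1.36 ± 0.35 log2 (adjusted p = 0.865, edgeR) and 0.89 without melanoma + ICI 3. Cd14, the co-receptor for bacterial lipopolysaccharide, was at 2.27, 2.88, 4.27 and 2.40 CPM in the high libraries against 1.86, 2.13 and 2.24 CPM at the lowest, median and highest low library. Every high library lay above every low one, as in 0.300% of all genes tested, by a narrow margin (0.50 ± 0.19 log2). Ch25h, which oxidises cholesterol to an antiviral oxysterol, was at 1.09, 0.467, 2.22 and 1.08 CPM against 0.267, 0.483 and 1.19 CPM. Melanoma 4 sat below the low median, so the classes overlapped (1.2 ± 0.49 log2). Without melanoma + ICI 1 the difference was 0.28 for Cd14 and 0.67 for Ch25h.

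Other regulators of these pathways were Nfkbia, Cebpd, Nfkbiz, Socs3 and Stat3. Nfkbia was at 25.3, 31.1, 36.5 and 37.8 CPM in the high libraries. In the low libraries it was at 30.1, 30.6 and 35.5 CPM in melanoma 2, 3 and 5 but at 14.1, 17 and 17.5 CPM in melanoma + ICI 2, 4 and 5. The joint difference of 0.54 ± 0.24 log2 was made of -0.18 within melanoma and 1.19 within melanoma + ICI, and the interaction of class and ICI had an adjusted p of 0.055 by edgeR. Cebpd, the C/EBP factor of the acute phase, was at 15.6, 12.6, 11.8 and 5.81 CPM against 5.73, 7.26 and 10.7 CPM (0.53 ± 0.20 log2), and tumour-free libraries reached 21.2 CPM. Nfkbiz, an atypical NF-kB co-factor needed for Lcn2 induction, was at 13.8, 17.3, 11.5 and 10.1 CPM against 7.78, 10.8 and 12.1 CPM (0.35 ± 0.16 log2). Socs3, the inhibitor that STAT3 induces, was at 2.56, 2.29, 3.98 and 4.80 CPM against 2.43, 2.88 and 2.98 CPM (0.23 ± 0.18 log2). Stat3 itself differed by 0.04 ± 0.11 log2. Single libraries moved these values: Cebpd was 0.35 without melanoma + ICI 1, Nfkbiz 0.23 without melanoma 4 and Socs3 0.08 without melanoma + ICI 3.

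Transcripts of the upstream cytokines were at the edge of detection and were not tested. Il6 was at 0 in melanoma 1 and melanoma + ICI 1 and at 0.212 and 0.0774 CPM in melanoma 4 and melanoma + ICI 3. Il1b ranged from 0.116 to 0.452 CPM in the high class and from 0.0815 to 0.217 CPM in the low class. Tnf reached 0.205 CPM in the high class and 0.197 CPM in the low class.

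Adhesion molecules of activated endothelium stood apart in a single library. Icam1, which binds leukocyte integrins, read 19.6 CPM in melanoma + ICI 1, against 1.98, 4.24 and 2.05 CPM in the other high libraries, 2.54 to 3.4 CPM in the low class and 1.5 to 3.55 CPM in tumour-free libraries. Sele (E-selectin) read 1.11 CPM there and at most 0.155 CPM in any other library. Selp (P-selectin) read 0.616 CPM there and at most 0.212 CPM elsewhere. These 3 genes were named after their values were seen. The Icam1 difference of 1.08 ± 0.58 log2 became -0.12 without melanoma + ICI 1.

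**Figure D2:**
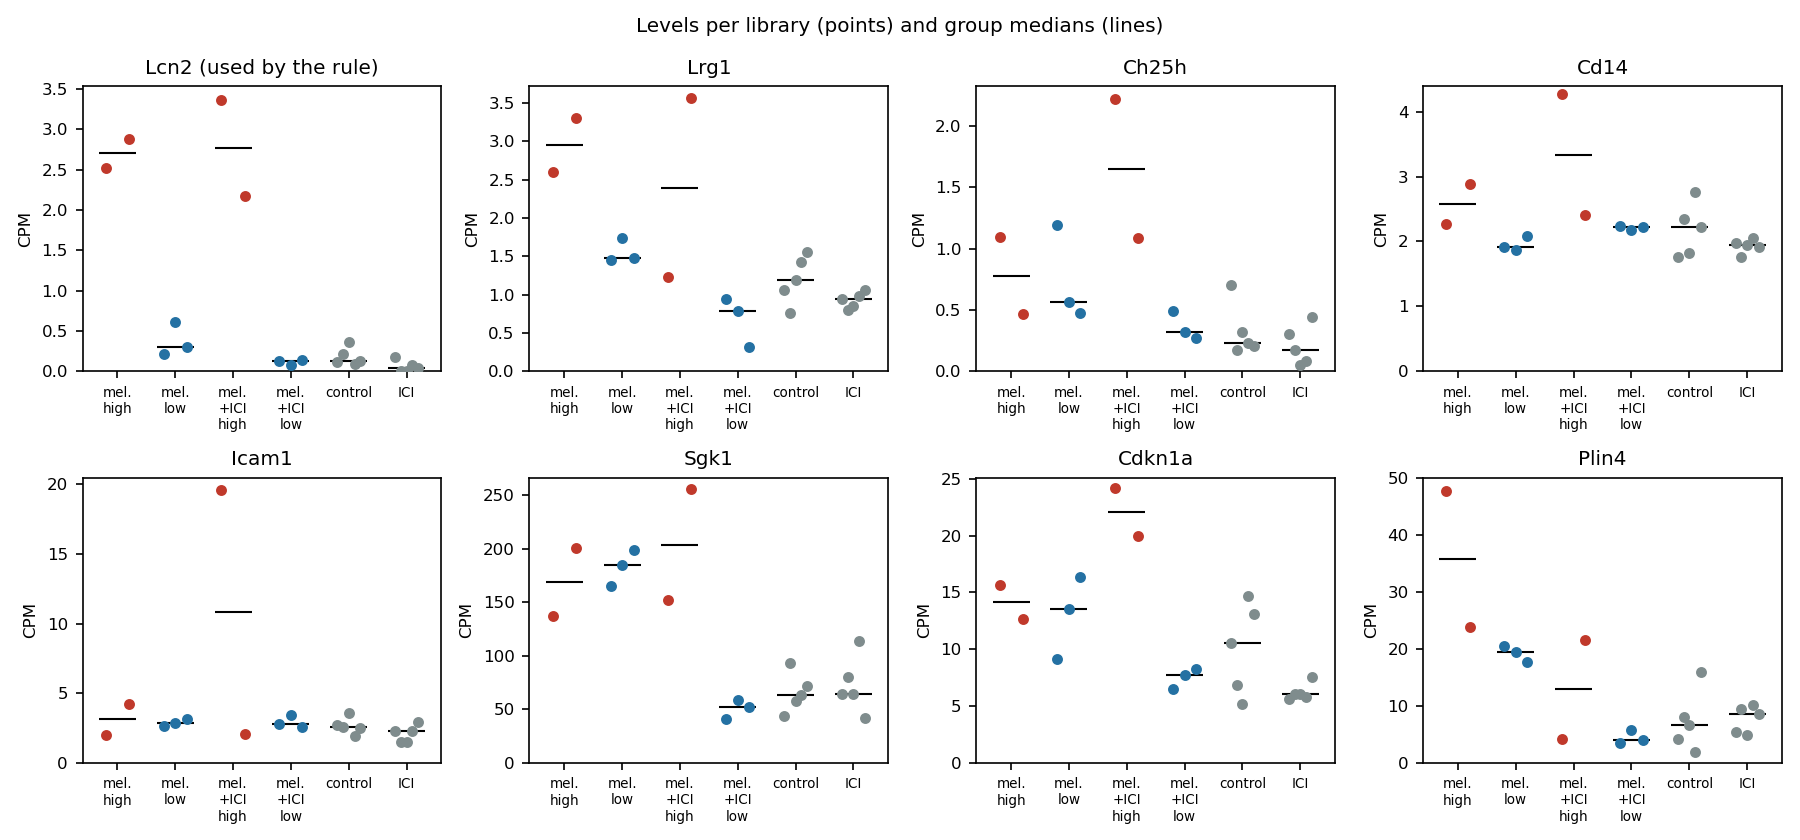
Levels in CPM of 8 genes, with points for libraries and lines for group medians; red marks the high class, blue the low class and grey tumour-free libraries, and mel. stands for melanoma. Lcn2 was used by the rule. Lrg1 is high in 3 of 4 red libraries, Icam1 reaches 19.6 CPM in a single library, and Sgk1 is low in the 3 low libraries with ICI alone among tumour-bearing groups.

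Genes that respond to glucocorticoids had mostly higher fitted levels in the high class, to an extent that depended on treatment and fit. Glucocorticoids act through the nuclear receptor Nr3c1, and genes such as Sgk1, Tsc22d3 and Fkbp5 are its usual readouts in brain. All 18 genes of the list passed the filter, and none was called. Of them 17 had a higher fitted level in the high class, the median difference was 0.37 log2, and 10 were higher at an unadjusted p under 0.05 with 0 lower, beside 9239 of 17690 genes higher and 2.33% higher at that p over all genes tested. The median depended on the treatment: it was 0.13 within melanoma, where 10 of 18 were higher, and 0.86 within melanoma + ICI, where 17 of 18 were higher. Of all genes tested, 8075 of 16215 were higher within melanoma and 8242 of 16113 within melanoma + ICI. A test of the interaction, added after the data were seen, called 0 of the 18 and gave a median of 0.85, with 9 larger with ICI and 1 smaller at an unadjusted p under 0.05, where 6.93% of all genes were larger. In the joint fit the number higher at an unadjusted p under 0.05 was 4 without melanoma + ICI 3, 5 without melanoma + ICI 2 and 6 without melanoma + ICI 4 or 5. It was 1 without the ICI covariate, 2 with the meningeal score as covariate and 4 with limma voom. The joint median was 0.23 without melanoma + ICI 3.

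Sgk1, a kinase that controls ion transport, shows the pattern. It was at 138 and 200 CPM in melanoma 1 and 4 and at 152 and 256 CPM in melanoma + ICI 1 and 3. In the low class it was at 165, 185 and 199 CPM in melanoma 2, 3 and 5 and at 41.3, 58.3 and 52.3 CPM in melanoma + ICI 2, 4 and 5. The tumour-free libraries lay between 41.7 and 113.4 CPM. All 5 melanoma libraries and the 2 high libraries with ICI thus stood above every tumour-free library, whereas the 3 low libraries with ICI lay within or below the tumour-free range. The difference between the classes was -0.12 log2 within melanoma and 2.00 log2 within melanoma + ICI, and the interaction had an adjusted p of 0.055 (edgeR).

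Tsc22d3, the anti-inflammatory leucine zipper protein GILZ, followed the same order, with 96.6, 89.2, 85.9 and 127 CPM in the high libraries, 92.0 to 101 CPM in the low melanoma libraries and 38.1 to 52.7 CPM in the low melanoma + ICI libraries. Cdkn1a, the cell cycle inhibitor p21, on chromosome 17 from 29090979 to 29100722, was at 15.7, 12.7, 24.2 and 20.01 CPM in the high libraries against 6.48, 8.72 and 16.4 CPM at the lowest, median and highest low library. Its fitted difference was 0.88 ± 0.27 log2 and the classes overlapped through melanoma 3 and 5. Plin4, a lipid droplet protein, was at 47.7, 23.8, 4.23 and 21.6 CPM against 3.54, 11.7 and 20.4 CPM. Here melanoma + ICI 1 stood with the low libraries of its treatment. Hif3a, a hypoxia-inducible factor subunit that glucocorticoids also induce, likewise read 3.78 CPM in melanoma + ICI 1 and 13.8 to 25.1 CPM in the other high libraries. Arrdc2 differed by 0.87 ± 0.31 log2 and Map3k6, a stress-activated kinase, by 0.82 ± 0.28 log2. Without melanoma + ICI 3 these differences were 0.36 and 0.42 log2, that of Plin4 was 0.58 beside 1.21, and that of Hif3a 0.37 beside 0.99. Fkbp5, the co-chaperone that restrains the receptor, did not follow this order: it was at 103.9 and 90.2 CPM in the high melanoma libraries, 45.8 and 50.2 CPM in the high melanoma + ICI libraries and 57.1 to 68.2 CPM in the low class (0.14 ± 0.14 log2, and from 0.02 without melanoma 1 to 0.25 without melanoma + ICI 1). Zbtb16 (0.14 ± 0.23 log2) and Lyve1 (-0.04 ± 0.28 log2) of the list also differed little in the joint fit.

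Immediate early genes, which neurons switch on within minutes of activity and which also respond to handling, had a similar dependence on treatment. All 18 were tested and none was called. The median difference was 0.42 log2, from -0.40 within melanoma (3 of 18 higher) to 1.07 within melanoma + ICI (16 of 18 higher). In the added interaction test 13 of 18 were larger with ICI at an unadjusted p under 0.05 and 0 smaller, with none called, where 6.93% of all genes were larger and 6.03% smaller. In the joint fit 1 of 18 (Egr3) was higher at that p, beside 2.33% of all genes. Egr1 was at 233 and 155 CPM in melanoma 1 and 4 and at 475 and 358 CPM in melanoma + ICI 1 and 3. It was at 208 to 281 CPM in the low melanoma libraries and 85.8 to 181 CPM in the low melanoma + ICI libraries. The classes overlapped in melanoma, but in melanoma + ICI both high libraries lay above the low ones. Egr3 was at 72.5, 56.2, 55.3 and 77.9 CPM against 33.3, 48.5 and 60.1 CPM at the lowest, median and highest low library (0.50 ± 0.15 log2). Egr2 reached 29.0 CPM in melanoma + ICI 1 against 2.93 to 4.18 CPM in the low libraries of the same treatment. Without melanoma + ICI 3 the Egr3 difference was 0.31. The joint median of the list was 0.23 without melanoma + ICI 1, 0.04 with the meningeal score as a covariate and 0.06 with limma voom.

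The interaction of class and ICI called 5 genes (0.0283%) at an adjusted p under 0.05 and at an unadjusted p under 0.05 1226 were larger with ICI (6.93%) and 1067 smaller (6.03%). Rassf3, a Ras-association protein, was at 18 and 15.6 CPM in melanoma 1 and 4 and at 54.4 and 59.4 CPM in melanoma + ICI 1 and 3. Low libraries had 24.2 to 29.0 CPM in melanoma and 18.7 to 20.5 CPM in melanoma + ICI. The class difference was thus larger with ICI by 2.19 log2 (adjusted p = 0.0022, edgeR). Lamp5, a marker of cortical and GABAergic neurons, was at 45.0 and 34.5 CPM in the high melanoma libraries and at 143 and 171 CPM in the high melanoma + ICI libraries, against 30.4 to 55.9 CPM in the low class. Frmd6, a scaffold protein of Hippo signalling, and Trib1, a pseudokinase, were larger with ICI by 1.27 and 2.01 log2. C530008M17Rik was smaller by 1.32 log2, with 64.5 and 58.8 CPM in melanoma + ICI 1 and 3 against 135 to 147 CPM in the low libraries of that treatment.

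Summed markers of neocortex and white matter in melanoma + ICI 1 and 3 also lay above those of the low libraries of that treatment. Of 10 neocortical markers 9 were in the files, and their summed level was 468 and 564 CPM in melanoma + ICI 1 and 3 against 197 to 282 CPM in the low libraries of that treatment, 188 to 306 CPM over the melanoma libraries and 150 to 386 CPM in tumour-free libraries. All 9 were tested, and all 9 had a positive interaction term, Lamp5 among them being called, beside 0.0283% of all genes. Over all genes 6.93% were larger with ICI and 6.03% smaller at an unadjusted p under 0.05 (edgeR). Oligodendrocyte markers summed to 6168 and 8357 CPM in the high melanoma + ICI libraries and 3009 to 5837 CPM in the low ones, with all 9 members larger with ICI at an unadjusted p under 0.05, where 6.93% of all genes were. The order was the other way in melanoma, with 6504 and 6653 CPM in the high and 7408 to 8842 CPM in the low libraries. Striatal markers summed to 207 and 896 CPM in the high melanoma + ICI libraries, to 266 and 750 CPM in the high melanoma libraries and to 214 to 1674 CPM in the low class. Tumour-free libraries spanned only 226 to 274 CPM for this list. CA1 markers, which mark the main output field of the hippocampus, summed to 418 to 725 CPM in the high class, 561 to 847 CPM in the low class and 591 to 858 CPM in tumour-free libraries. The hippocampal neuron markers summed to 4817 to 8323 CPM in the high class and 4985 to 7444 CPM in the low class, and no member of that list was at 0 in any class. The part of these region markers in the glucocorticoid, immediate early and interaction results was not tested.

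No receptor or iron gene was called between the classes by edgeR. Slc22a17, the lipocalin-2 receptor, was at 702, 850, 740 and 694 CPM in the high libraries and at 665, 747 and 913 CPM at the lowest, median and highest low library, a difference of -0.03 ± 0.11 log2. Lrp2 was at 2.35, 1.95, 0.49 and 1.35 CPM against 1.54, 2.27 and 3.47 CPM (-0.69 ± 0.33 log2, and -0.41 without melanoma + ICI 1). Hamp, the iron hormone hepcidin, had at most 0.0848 CPM in any tumour-bearing library and was not tested. Of the 20 genes of the iron list 18 were tested and none was called, 8 were higher with a median of -0.02 log2, and at an unadjusted p under 0.05 2 were higher and 1 lower, where 2.33% of all genes were higher and 3.01% lower. Those were Fth1, the ferritin heavy chain (0.36 ± 0.13 log2), Hmox1, which frees iron from haem (0.39 ± 0.16), and Cp, the ferroxidase ceruloplasmin (-0.42 ± 0.17). Fth1 was at 1751, 1919.5, 2066 and 1749 CPM in the high libraries and 1167, 1451.5 and 1968 CPM at the lowest, median and highest low library. Tumour-free libraries reached 2642.5 CPM for Fth1, above both classes.

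The reactive astrocyte markers Gfap and Serpina3n did not rank with Lcn2. Gfap, the intermediate filament of astrocytes, was at 280, 370, 306 and 190 CPM in the high libraries and 266, 324 and 368 CPM at the lowest, median and highest low library (-0.18 ± 0.16 log2, and from -0.32 without melanoma 4 to -0.02 without melanoma + ICI 3). Serpina3n, a protease inhibitor of reactive astrocytes, was at 34.7, 52.7, 29.8 and 10.5 CPM against 22.1, 27.9 and 39.9 CPM (0.04 ± 0.35 log2). The classes overlapped for both genes, and melanoma + ICI 3 gave the lowest value of each. Of 37 genes on the reactive astrocyte list 34 were tested and none was called, 12 were higher and the median was -0.16 log2. At an unadjusted p under 0.05, 2 were higher and 5 lower, beside 2.33% and 3.01% of all genes. Those higher were Cd14, with every high library above every low one, and Ch25h, both also on the acute-phase list. With the meningeal score as a covariate the direction turned, with 20 of 34 higher, a median of 0.08 and 1 lower at that p. In the joint fit those lower included Cd44, an adhesion receptor for hyaluronan (-1.18 ± 0.38 log2), Ggta1, a glycosyltransferase (-0.52 ± 0.15), and Serping1, the C1 inhibitor (-0.72 ± 0.27).

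No gene of the microglial lists was called. The homeostatic list, with P2ry12 and Tmem119 as its usual members, had 8 of 14 genes higher and a median of 0.01 log2, with none called. P2ry13, a nucleotide receptor of resting microglia, was at 6.81, 6.70, 6.86 and 6.89 CPM in the high libraries against 6.73, 8.27 and 10.3 CPM (-0.29 ± 0.12 log2). Of 21 genes on the reactive list 14 were tested, 6 were higher and none was called, and 11 were higher with the meningeal score as a covariate. Spp1, osteopontin, was at 3.70, 8.31, 10.9 and 6.0 CPM against 9.30, 13.2 and 16.2 CPM (-0.83 ± 0.28 log2), a gene that meningeal cells express too. In the complement list, 7 of 13 were higher and none was called, but C1qb and C1qc, subunits of the initiator C1q made by microglia, were above every low library in all high libraries, as were 0.300% of all genes. C1qc was at 29.2, 30.1, 33 and 29.8 CPM against 25.7, 26.9 and 27.9 CPM (0.19 ± 0.07 log2). C1qb was at 26.7, 25.0, 32.7 and 29.1 CPM against 21.7, 24.3 and 24.7 CPM (0.25 ± 0.08 log2). C4b, the classical pathway component made by glia, was at 58.7 and 64.5 CPM in the high melanoma libraries and at 31.7 and 37.3 CPM in the high melanoma + ICI libraries, against 57.8 to 70.4 CPM in the low class.

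Interferon-response genes had 5 of 22 tested members higher, a median of -0.10 log2 and none called. The direction differed by treatment, with 2 of 20 higher (median -0.28) within melanoma and 11 of 20 higher (median 0.05) within melanoma + ICI, and 11 of 22 were higher with the meningeal score as covariate. The joint median was -0.05 without melanoma 1, -0.04 without melanoma 5 and -0.20 without melanoma + ICI 3. Oasl2, an antiviral protein of the family of oligoadenylate synthetases, was at 2.86, 3.69, 3.12 and 2.48 CPM in the high libraries against 3.96, 4.31 and 5.99 CPM, without overlap (-0.59 ± 0.16 log2). In 0.452% of all genes tested every high library likewise lay below every low one. Antigen presentation genes had 2 of 14 higher, a median of -0.39 log2 and none called. H2-Aa, a class II chain, was at 0.589, 2.25, 0.862 and 2.36 CPM against 0.640, 2.90 and 5.69 CPM (-0.91 ± 0.51 log2, with -0.60 without melanoma + ICI 1 and -1.50 without melanoma 4). Without melanoma + ICI 1 the median of the list was -0.22. With the meningeal marker score as a covariate 9 of the 14 were higher and the median was 0.18.

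Meningeal and fibroblast markers had lower fitted levels in the high class within each treatment. All 12 were tested and none was called by edgeR. DESeq2 called 2 of them (Fmod and Slc22a6), beside 0.0452% of all genes. In the edgeR fit all 12 had a lower level with a median of -0.88 log2, and 7 were lower at an unadjusted p under 0.05, where 3.01% of all genes were lower. The median was -0.85 within melanoma and -0.82 within melanoma + ICI, with 0 of 12 higher in each. The summed level was 101 to 268 CPM in the high class, 144 to 516 CPM in the low class and 72.3 to 395 CPM in tumour-free libraries, so the classes overlapped. Within melanoma the sums were 101 and 221 CPM in the high and 144, 223 and 326 CPM in the low libraries, which overlap, and within melanoma + ICI 184 and 268 against 276 to 516 CPM, which do not. Col1a1, a collagen chain, was at 7.02, 11.4, 8.91 and 11.6 CPM against 9.86, 16.7 and 27.5 CPM (-0.83 ± 0.23 log2). Ogn, the proteoglycan osteoglycin, was at 2.82, 5.64, 5.38 and 6.12 CPM against 5.38, 8.82 and 13.7 CPM (-0.92 ± 0.24 log2). Slc6a13, a GABA transporter of the leptomeninges, was at 3.95, 6.57, 11.7 and 8.75 CPM against 9.22, 13.2 and 23.1 CPM (-0.96 ± 0.24 log2). Fmod and Slc22a6 of the leading genes belong to this list.

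Vascular genes differed in direction. Of 19 genes on the blood-brain barrier list, 10 were higher with a median of 0.01 log2 and none called. The median was -0.14 within melanoma and 0.14 within melanoma + ICI. Slc2a1, the glucose carrier of barrier endothelium, was at 161, 139, 116 and 216 CPM in the high libraries against 81.8, 114 and 156 CPM (0.51 ± 0.20 log2), and Mfsd2a, a lipid carrier that restrains transcytosis, was at 27.2, 25.1, 17.4 and 24.5 CPM against 13.2, 19.3 and 26.6 CPM (0.31 ± 0.12 log2). Without melanoma + ICI 3 these differences were 0.20 and 0.17 log2. Kdr, the main receptor of endothelial growth factor, was lower, at 8.96, 12.4, 11.7 and 14.8 CPM against 10.7, 18.5 and 22.9 CPM (-0.57 ± 0.16 log2). Mural cell markers had 2 of 9 higher, with 4 lower at an unadjusted p under 0.05 beside 3.01% of all genes, and their summed level was 163 to 232 CPM in the high class and 197 to 269 CPM in the low class.

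Defining neutrophil markers were near 0 in every library. Of 15 neutrophil genes, 3 passed the filter (Mmp9, Csf3r and Lyz2), which microglia or neurons also express, and 1 of the 3 was higher. S100a8, the main cytosolic protein of neutrophils, was at 0.378, 0.339, 0.616 and 0.0774 CPM in the high libraries and 0.0815 to 0.276 CPM in the low libraries. The granule genes Ltf, Camp and Ngp reached at most 0.168, 0.168 and 0.232 CPM in the high class and 0.304, 0.171 and 0.391 CPM in the low class. S100a9 averaged 0.317, 0.226 and 0.112 CPM in high, low and tumour-free libraries, and Mmp8 0.0919, 0.0423 and 0.0044 CPM. Mpo went the other way between the classes, at 0.177, 0.276 and 0.245 CPM. Mmp9, the gelatinase whose complex with lipocalin-2 is found in neutrophil granules, was at 1.39, 1.23, 2.46 and 2.09 CPM against 1.30, 1.65 and 2.14 CPM (0.07 ± 0.22 log2). The summed neutrophil list was 13.4 to 17.3 CPM in the high class and 13.7 to 17.4 CPM in the low class. Most of it was Lyz2 (mean 5.96 and 6.63 CPM) and Csf3r (6.02 and 6.09 CPM), so the sum says little on neutrophils.

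Choroid plexus markers varied widely within each class. Ttr, transthyretin of the choroid plexus epithelium, was at 378, 3399, 43.9 and 2921 CPM in the high libraries and from 14.2 to 5979.8 CPM in the low libraries. The summed list was 304 to 5338 CPM in the high class, 252 to 9952 CPM in the low class and 136 to 9341 CPM in tumour-free libraries, with 12 of 12 higher within melanoma and 0 of 11 within melanoma + ICI. Red blood cell markers summed to 10.5 to 40.0 CPM and 9.16 to 42.8 CPM in the high and low classes. T cell markers summed to 3.27 to 20.2 CPM and 3.58 to 21.4 CPM. The low sums were 21.4 and 14.0 CPM in melanoma 3 and 5 and 3.58 to 5.42 CPM in the other low libraries. Cd4 averaged 3.92 ± 4.07 CPM in the high and 4.55 ± 6.67 CPM in the low class (SD). Trbc2, a gene that the neocortical list also holds, averaged 5.59 ± 4.87 and 1.04 ± 0.963 CPM. Of the genes of the T cell receptor complex, Trac averaged 0.392 and 0.612 CPM in the high and low class, and Cd3e, Cd3d, Cd3g and Trbc1 at most 0.0692 CPM in either. The kinase Lck averaged 1.42 and 1.88 CPM and the cytokine receptor Il7r 0.374 and 0.505 CPM. For border macrophages the sums were 24.6 to 40.8 and 26.9 to 46.6 CPM, and for ependyma 28.8 to 61.1 and 30.3 to 98.3 CPM. Melanocyte markers, some of which oligodendrocytes share, summed to 62.9 to 78.8 CPM and 54.7 to 87.2 CPM, within the tumour-free range of 49.2 to 97.5 CPM.

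**Figure D3:**
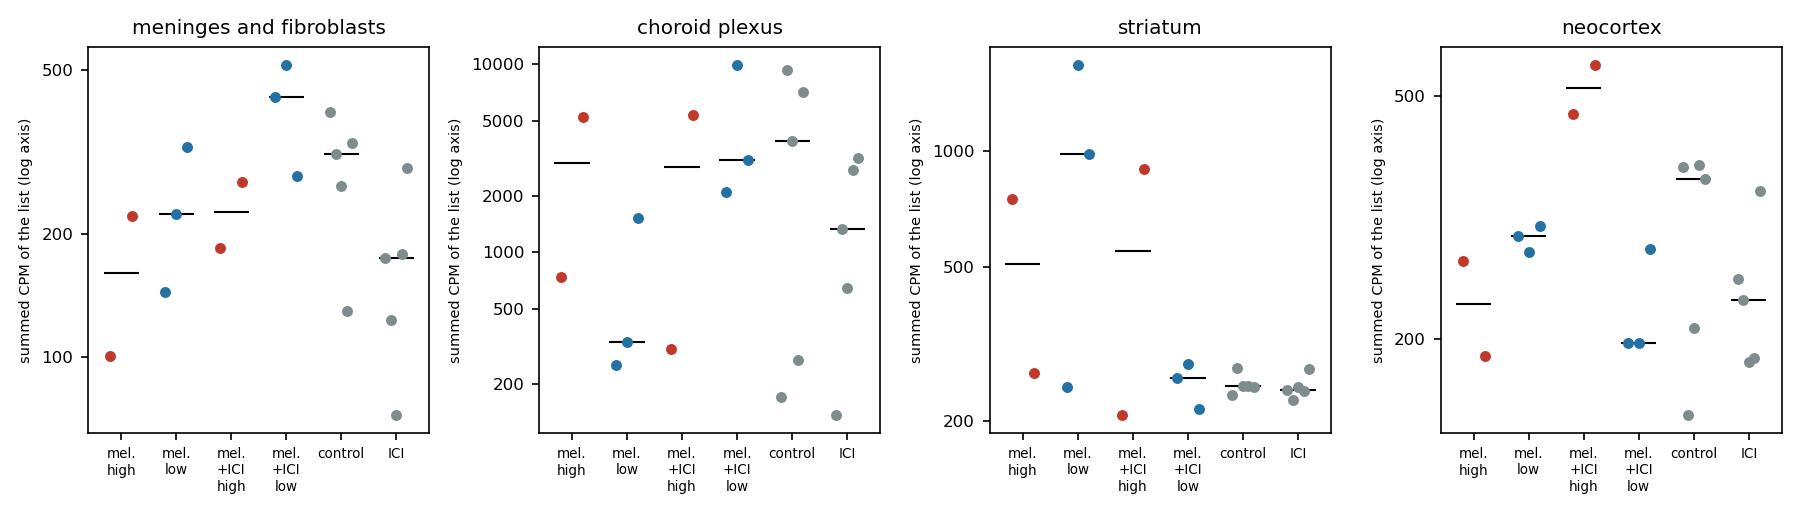
Summed CPM of 4 marker lists, on log axes, with points for libraries and lines for group medians (red high, blue low, grey tumour-free; mel. stands for melanoma). The neocortical sum is 468 and 564 CPM in the high melanoma + ICI libraries, and the choroid plexus sum runs from 136 to 9952 CPM over all libraries.

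**Figure D4:**
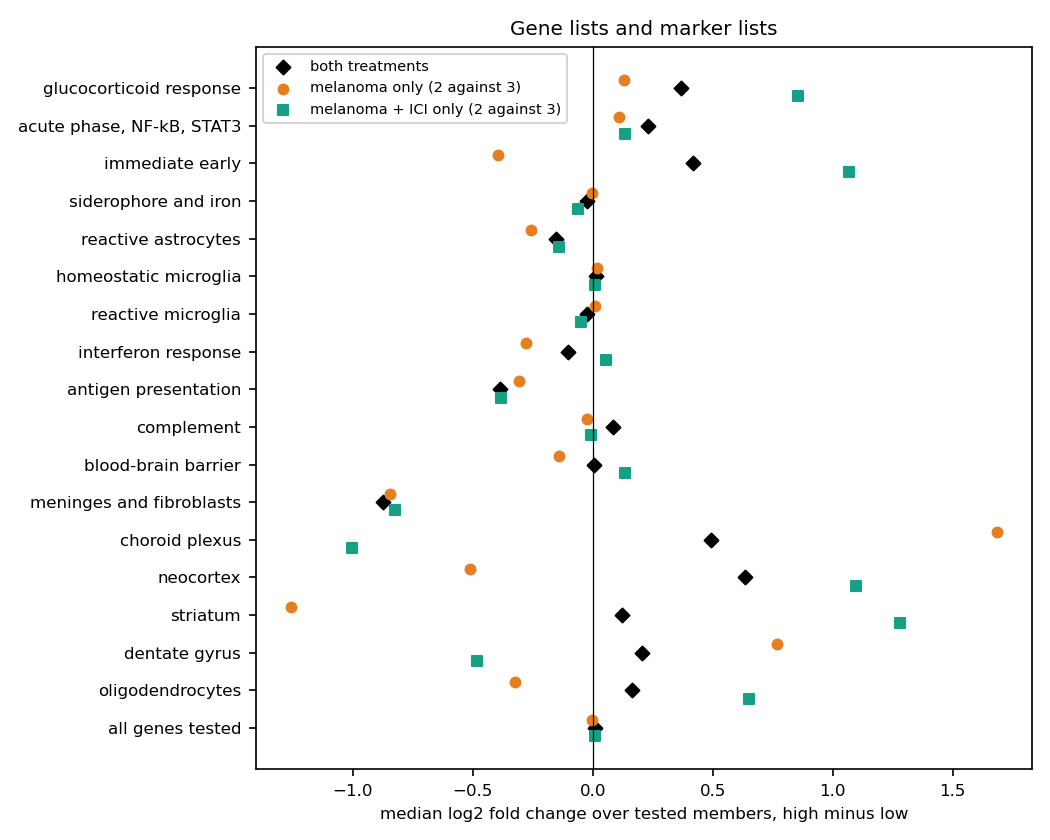
Median log2 difference, high minus low, over the tested members of each gene or marker list, for the joint fit (black diamonds), within melanoma (orange circles) and within melanoma + ICI (green squares), where each has 2 high and 3 low libraries. The meningeal median is -0.88, -0.85 and -0.82, whereas the immediate early median is 0.42, -0.40 and 1.07.

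Both classes were also set against the 10 tumour-free libraries in a fit of all 20. These contrasts share the tumour-free libraries, so their values are given side by side. In the high class 0 of 17513 genes (0.00%) were called and 626 (3.57%) had an unadjusted p under 0.05, of which 397 were higher (2.27%) and 229 lower (1.31%). In the low class 0 (0.00%) were called and 750 (4.28%) had an unadjusted p under 0.05, of which 360 were higher (2.06%) and 390 lower (2.23%). DESeq2 called 6 genes (0.0343%) in the high contrast, namely Apold1, Ctla2a, Cdkn1a, Lrg1, Tmem252 and Ch25h, all higher. Without melanoma 1, edgeR called Apold1 and Tmem252, with an adjusted p of 0.0116 each. Apold1, an early-response gene of endothelium, was at 4.25, 8.70, 11.9 and 10.9 CPM in the high libraries, 2.98, 5.59 and 10.3 CPM at the lowest, median and highest low library and 2.14, 3.54 and 4.71 CPM in tumour-free libraries. Only melanoma 1 of the high class lay inside the tumour-free range. Tmem252, a small membrane protein, was at 2.52, 6.24, 5.17 and 6.15 CPM against 2.14 to 4.21 CPM in the low class and 1.02 to 2.68 CPM in tumour-free libraries.

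Of the 17513 genes, 8432 had a higher fitted level than in tumour-free libraries in the high class (median -0.01 log2) and 7844 in the low class (median -0.02). Relative to tumour-free libraries, Lrg1 was 1.33 log2 higher in the high class and 0.00 log2 apart in the low class. Ch25h was 2.20 and 0.99 log2 higher, Cdkn1a 1.25 and 0.31, Sgk1 1.43 and 0.61, and Nfkbia 0.82 and 0.34 in the high and low class. The glucocorticoid list had 17 of 18 higher in the high class (median 0.63 log2, 14 at an unadjusted p under 0.05) and 14 of 18 in the low class (median 0.22, 3 at an unadjusted p under 0.05), beside 2.27% and 2.06% of all genes higher at that p. The low class was not uniform for this list. Its summed level was 1042 to 1115 CPM in the low melanoma libraries and 545 to 631 CPM in the low melanoma + ICI libraries. High melanoma libraries stood at 1048 and 1106 CPM, high melanoma + ICI libraries at 859 and 1286 CPM, and tumour-free libraries at 595 to 839 CPM. The acute-phase list had 17 of 24 higher (median 0.22) and 14 of 24 higher (median 0.06). Meningeal markers had 3 of 12 higher in the high class (median -0.11) and 12 of 12 in the low class (median 0.69). Striatal markers had 9 of 10 and 10 of 10 higher (medians 1.33 and 1.31), and dentate gyrus markers 0 of 8 in each (medians -0.74 and -0.98). The striatal sum was 750, 1674 and 979 CPM in melanoma 1, 3 and 5 and 896 CPM in melanoma + ICI 3. It was only 207 to 280 CPM in the other tumour-bearing libraries, beside 226 to 274 CPM in tumour-free libraries. For the low contrast the leading genes were Ccna2, the S-phase cyclin A2 (0.60 log2), and Xlr3a, an X-linked gene with near-identical copies whose counts are therefore uncertain (1.33 log2).

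**Figure D5:**
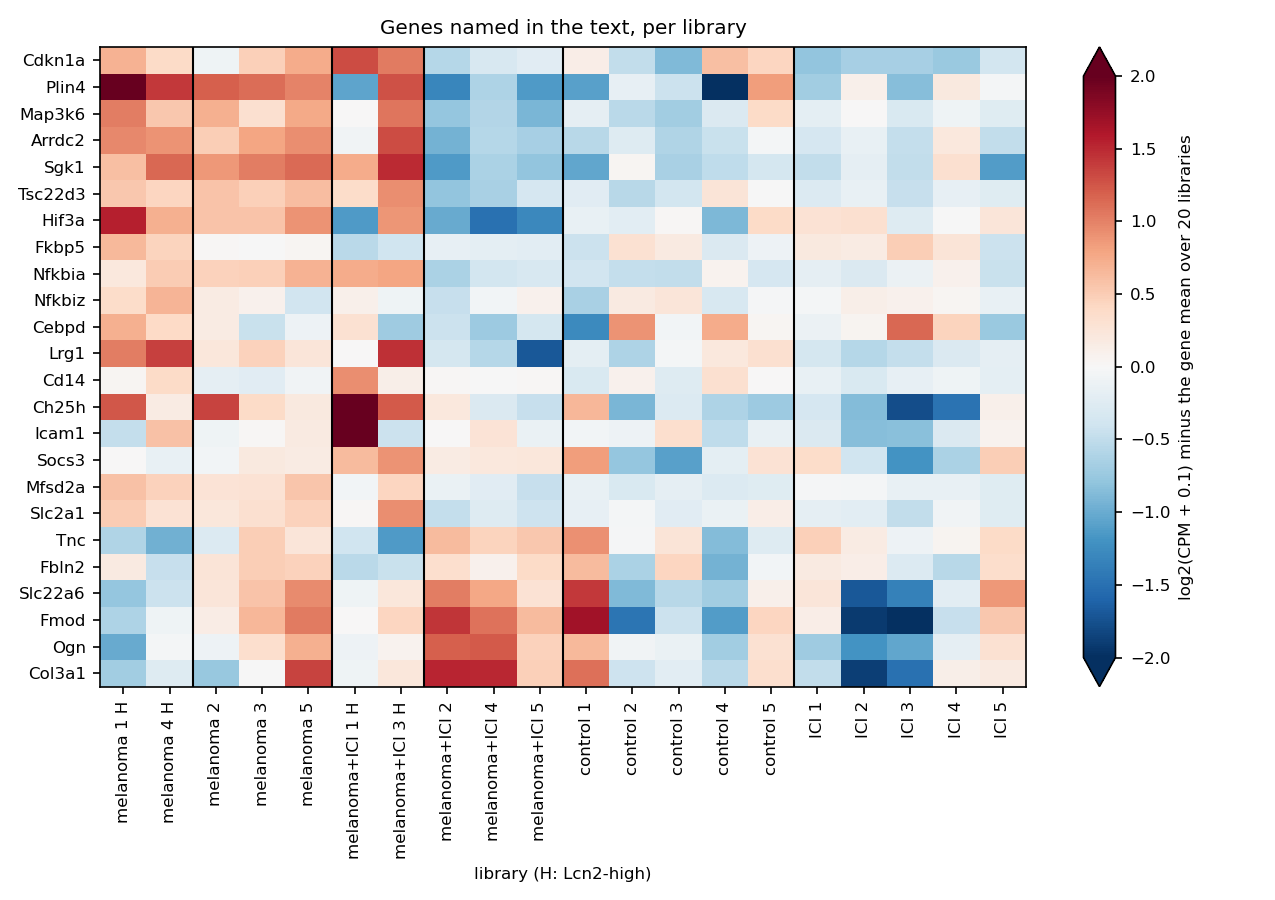
Log2 levels of 24 genes of the text in all 20 libraries, as log2(CPM + 0.1) minus the gene's mean over the libraries, with red above and blue below the mean and colours saturated at 2. Columns marked H are the high class and vertical lines part the groups. Lrg1 is red in 3 of 4 high columns, and Sgk1 and Tsc22d3 are blue in the 3 low columns with ICI.

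Within the 10 tumour-free libraries, which the split did not use, the Lcn2 level was set against all other genes with ICI as covariate. Of 17495 genes 0 (0.00%) were called and 226 (1.29%) had an unadjusted p under 0.05, 82 with a positive (0.469%) and 144 with a negative slope (0.823%). That number was 78 without control 3, and 347, 469 and 342 without CONTROL + ICI 1, 2 and 3, and without control 1 there were 168 positive and 224 negative slopes. Without the ICI covariate 36 of 149 slopes were negative, and with limma voom 516 of 1103, so the split by sign depended on the fit. Over all genes 8679 slopes were positive. Chrnb3, a nicotinic receptor subunit, and 1700124L16Rik had the smallest p, neither passing adjustment. The glucocorticoid list had 12 of 18 positive slopes with a median of 0.07, and the acute-phase list 15 of 23 with a median of 0.08, in log2 per log2 unit of Lcn2. At 0 to 8 counts of Lcn2 per library these slopes rest on counts close to the limit of detection.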

How the data were processed

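Raw read counts per gene, 1 deposited table per library, were used for 49671 genes in 20 hippocampal libraries. The submitters' processing notes name STAR 2.5.2b and DESeq2 1.16.1. Genome build, counting program, strand setting and treatment of multi-mapping reads are not given in the sources used here. Of 49412 gene IDs found in GENCODE M21 (GRCm38), 45214 have the same start and end in the deposited tables. No table line names no gene. Symbols were absent for 345 IDs, holding 0.0702% of counts. Without strand information, reads of overlapping genes cannot be told apart, and counts of near-identical family members (Serpina3n, Ctla2a, the H2 genes, haemoglobins) are uncertain.

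Counts were scaled by TMM in edgeR 4.0.16 (R 4.3.3) and filtered with filterByExpr grouped by ICI status (minimum count 10, total 15). The quasi-likelihood test (robust) had ICI as covariate, and Benjamini-Hochberg adjustment ran over all genes but Lcn2, with a threshold of 0.05. CPM is per 1000000 TMM-scaled counts. limma 3.58.1, DESeq2 1.42.0, sva 3.50.0, single-treatment fits, marker-score covariates and leaving out each library were alternatives. Fits were also run on simulated counts of independent genes, without an ICI effect or differences in tissue makeup between libraries. That run therefore does not show what could be missed in these libraries. Replicates are separate brains, per the labels; counts of pairs within a group differed by more than sampling noise. Replicate numbers did not pair the samples. Depth was 21990624 to 25735149 counts.

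Named genes were, among those with a mean of at least 1 CPM, the 12 largest rises and falls past adjusted p 0.05 or, with fewer than 10 passing, the 10 with the smallest p; up to 4 members with the smallest p of each list; 14 genes fixed for Lcn2 biology; and the 2 with the smallest p in each other contrast. Icam1, Sele, Selp, Dsc2, Sgk1, Tsc22d3, Hif3a, Fkbp5, Ttr, several meningeal, neutrophil and T cell genes, Apold1 and Tmem252 with other DESeq2 calls, and the interaction genes were named after their values were seen. The split, the lists and the tests were chosen with earlier results of these data known. Promoters are from RefSeq, and chromosome 18 was left out of the window shares.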

Additional observations from a re-analysis of the deposited data

Results flagged for a closer look

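Of 174 sets of 4 to 10 values tested, 7 had a library far from the others of its class, and about 1 in 20 would be flagged by chance. In the high class melanoma 1 stood apart with 15.6 CPM of Fbln2 and 2.82 CPM of Ogn, and melanoma + ICI 3 with 25735149 total counts. In the low class melanoma 2 stood apart with 7.98 CPM of Dcn and 2.43 CPM of Socs3, melanoma 3 with 21.7 CPM of C1qb, and melanoma + ICI 4 with 9.0 CPM of Plvap.

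For 5 genes the class difference itself differed between treatments in the interaction test of edgeR. The difference with ICI minus that without was 2.19 log2 for Rassf3, 2.37 for Lamp5, 1.27 for Frmd6, 2.01 for Trib1 and -1.32 for C530008M17Rik. Neocortical and oligodendrocyte marker sums differed in the same libraries, and their part was not tested.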

How the results depend on the processing

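The count of 0 genes called between the classes became 8 with DESeq2 and 2 (Rassf3 and Myl4) within melanoma + ICI alone. It was 0 in the other alternatives run, including each library left out, while the number at an unadjusted p under 0.05 ranged from 595 (without melanoma + ICI 4) to 1766 (without melanoma + ICI 3), beside 946, with 597 without melanoma + ICI 2 and 1556 without melanoma 4, and was 2030 within melanoma + ICI alone (1045 higher and 985 lower, beside 413 and 533), 286 with the meningeal score and 1420 with the choroid plexus score as covariate. For the high class against tumour-free libraries the count of 0 became 6 with DESeq2 and ran from 0 to 2 when libraries were left out, with 313 (without melanoma + ICI 3) to 1653 (without control 4) at an unadjusted p under 0.05, 1009 without melanoma 1, 1240 without melanoma 4 and 1316 without a filter on low counts. For the low class that number ran from 412 (without melanoma 3) to 1059 (without control 1), with 496 without CONTROL + ICI 3, 1443 with limma voom and 1494 without a filter. For Lcn2 within tumour-free libraries the count of 0 became 1 (Scgb1a1) without a filter on low counts, and the 226 at an unadjusted p under 0.05 became 836 without a filter, 149 without the ICI covariate and 1103 with limma voom. The replicate numbers did not pair the samples: 1 of 5 same-numbered pairs of tumour-bearing libraries and 3 of 5 of tumour-free libraries correlated above 0.1, and 1 of 5 in each set correlated best with its own number. With the replicate block 0 genes were called in each comparison, and 490 had an unadjusted p under 0.05 between the classes, among them 4 glucocorticoid, 1 acute-phase and 0 meningeal genes. Within tumour-free libraries 508 had one with the block, 357 with a positive and 151 with a negative slope.

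Over 72 genes, 1868 alternative values were computed, 44 of which changed sign, and 53 genes kept their sign throughout. On the log2 scale, within melanoma alone Egr1 was -0.37, Egr2 -0.55, Egr4 -0.057, Gfap 0.041, Mmp9 -0.32, Nfkbia -0.18, Sgk1 -0.12, Slc22a17 0.15, Socs3 -0.17, Stat3 -0.013 and Tsc22d3 -0.068. Within melanoma + ICI alone Fkbp5 was -0.28, Serpina3n -0.61 and Ttr -1.06. With the meningeal score as covariate Col3a1 was 0.19, H2-Aa 0.42, H2-Eb1 0.32, Mmp9 -0.12, Serpina3n -0.13, Serping1 0.028 and Slc22a17 0.12. Col3a1 is a member of the list that makes this score, so its shift there is built into the fit. With limma voom Mmp9 was -0.12, Nfkbia -0.0081, Slc22a17 0.026 and Stat3 -0.0081. With the replicate block Icam1 was -0.042 and Serpina3n -0.072. With 1 surrogate variable Mmp9 was -0.074 and Slc22a17 0.035. Serpina3n was -0.017 with Lcn2 as a continuous term, -0.037 with the red blood cell score and -0.68 with the mural cell score, an alternative added after seeing the data. Ttr was -0.015 in the fit of all 20 libraries. When libraries were left out, the difference ran from -0.12 to 1.44 for Icam1, -0.072 to 0.18 for Mmp9, -0.24 to 0.38 for Serpina3n, -0.14 to 0.027 for Slc22a17, -0.094 to 0.12 for Stat3 and -0.46 to 2.07 for Ttr. The cause of the other shifts was not tested.

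Limits are the 4 and 6 libraries of the classes, a split made on the data, and low counts of Lcn2 itself (2 to 14 in the low class).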
